A study of Mus musculus with 6 samples.

Results

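The transcription factors that give a macrophage its identity were examined in bone marrow-derived macrophages, cells grown in culture from marrow precursors. The set holds 9 genes, chosen by name: Spi1, Cebpa, Cebpb, Maf, Klf4, Runx1, Zeb2, Bach1 and Tfec. Each name matched 1 row of a table of 16836 genes, and all 9 passed a filter on low values that left 12118 genes for testing. The libraries came from mouse macrophages labelled UBE3A KO, from Ube3a-/- animals (KO, 3 libraries), and from macrophages labelled Wild-type, from littermates (WT, 3 libraries). Polyadenylated RNA was sequenced with no treatment named in the labels, and no source used here names the strain, age or sex of the mice, the culture factors or the knockout allele. Ube3a encodes a ubiquitin ligase, and the comparison asks how its loss alters the macrophage transcriptome.

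Macrophage identity is set by a small group of DNA-binding proteins that act together at the enhancers of myeloid genes. PU.1, the ETS-family product of Spi1, opens chromatin across the lineage, and C/EBP proteins, RUNX1 and c-MAF bind beside it. Other members act mainly as repressors: ZEB2 shuts off genes of other fates, and BACH1 holds down heme and antioxidant genes until heme releases it. KLF4 promotes monocyte formation, and TFEC is a relative of MITF found largely in macrophages.

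The libraries held 25454862 to 35517269 reads on the genes of the table. Levels are given as CPM, reads scaled to a common library size with the authors' scaled totals, with mean ± SD over 3 libraries per genotype where both are printed. Ube3a lay at 61.2 to 77.0 CPM in KO libraries and 178 to 207 CPM in WT libraries (log2 fold change -1.47; limma with Benjamini-Hochberg adjustment, adjusted p = 0.00444), so the labels match the targeted gene. Replicate 2 of each genotype stood apart from the rest in holding 14 to 28 reads of Xist, against 30161 to 42232 reads in the other 4 libraries. All 11 macrophage markers were tested, with a summed level of 15612 to 18218 CPM in KO and 16419 to 17515 CPM in WT. Lyz2 made up most of that sum, at 8859 to 11216 CPM. Of other cell types, 2 of 6 B cell genes were in the table (at most 4.38 CPM summed), 1 of 9 T and NK cell genes (at most 0.600 CPM), 4 of 7 dendritic cell genes (at most 1.04 CPM), 4 of 8 stromal genes (at most 2.25 CPM) and 0 of 4 mast cell and basophil genes. Of 15 neutrophil genes 11 were in the table, at 9.04 to 22.5 CPM summed in KO and 11.8 to 34.5 CPM in WT. Higher summed levels were found for stem and progenitor genes, with 9 of 11 in the table at 1165 to 1285 CPM (almost all Cd93, at 1116 to 1250 CPM), for erythroid and megakaryocyte genes, with 2 of 8 at 70.6 to 107 CPM (almost all Pf4), and for osteoclast genes, with 4 of 7 at 16.5 to 63.5 CPM. The 7 monocyte genes, all in the table, stood at 744 to 997 CPM summed in KO and 725 to 1057 CPM in WT. The progenitor marker Cd34 measured 25.8, 24.5 and 34.0 CPM for KO against 77.3, 28.9 and 74.1 CPM for WT, in the order of replicates 1 to 3 (log2 fold change -0.96; limma adjusted p = 0.866, unadjusted p = 0.0231). For Cd34, WT replicate 2 lay within the KO range. The other tested genes of the stem and progenitor list had log2 fold changes of -0.05 (Meis1), -0.03 (Sox4) and 0.03 (Cd93). The part of these cell types in the levels of the factors was not tested. Whether the libraries of a genotype stem from different animals is not in the labels. By Xist, replicate 2 of each genotype differed from replicates 1 and 3 as cells of different animals would. Whether replicates 1 and 3 share an animal is not known. The p-values then measure only how far these samples spread, which may be technical in part.

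Spi1 was the most abundant of the 9 factors for its length, and Tfec the least. Levels of different genes were compared as CPM per kb of annotated exon, because long transcripts collect more reads. On that scale Spi1 averaged 103 CPM per kb over the 6 libraries, above 97.2% of all tested genes, and Maf, which encodes c-MAF, averaged 54.8, above 93.7%. Next came Cebpb at 28.0, Zeb2 at 25.7 and Bach1 at 21.9 CPM per kb, followed by Cebpa at 16.8, Runx1 at 10.4, Klf4 at 8.10 and Tfec at 4.33 CPM per kb. Tfec was above 36.2% of tested genes and Klf4 above 53.9%, so these regulators sat in the middle range of the transcriptome.

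Only Cebpb and Zeb2 overlapped among neighbours in this order, with Cebpb down to 23.1 and Zeb2 up to 28.5 CPM per kb. The gaps were narrow between Zeb2 and Bach1 (lowest Zeb2 library 23.4, highest Bach1 library 22.8), between Bach1 and Cebpa (21.1 against 21.0) and between Runx1 and Klf4 (9.40 against 9.26 CPM per kb). The order also depends on the length used: with the longest annotated transcript, Zeb2 stood ahead of Cebpb and Runx1 ahead of Cebpa, so that 5 of the 9 kept their place. Zeb2 had the most reads of all, 512 CPM on average, spread over 19.9 kb of exon. Cebpa and Cebpb are genes of 1 exon block, of 2636 and 1504 bases.

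**Figure D1:**
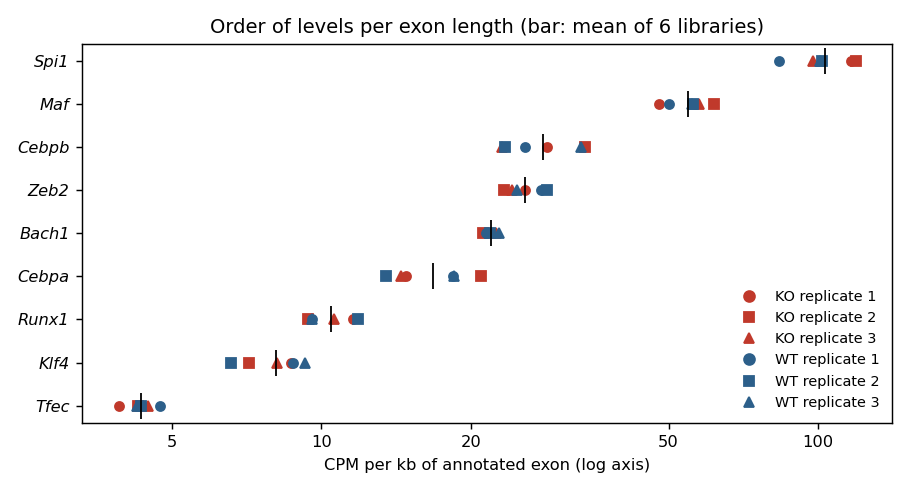
Level of each lineage factor as CPM per kb of annotated exon (log axis), with 1 point per library and a bar at the mean of 6 libraries. Spi1 and Maf lie above the rest, and the points of Cebpb and Zeb2 overlap.

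The 9 genes lie on 6 chromosomes (GRCm38, GENCODE M21). Spi1 is at chr2:91082390-91115756 on the plus strand, Zeb2 at chr2:44983632-45117395 (minus) and Cebpb at chr2:167688915-167690418 (plus). Klf4 lies at chr4:55527143-55532466 (minus), Tfec at chr6:16833373-16898441 (minus) and Maf at chr8:115682942-115707794 (minus). Runx1, at chr16:92601466-92826149 (minus), and Bach1, at chr16:87698945-87733346 (plus), share a chromosome. Cebpa, at chr7:35119293-35121928 (plus), is the only one on the chromosome of Ube3a, 24.1 Mb away. Cebpb shares 312 exon bases with Tmem189 on the opposite strand, a gene with 27728 reads over the 6 libraries, and Zeb2 shares 653 with its antisense gene Zeb2os, with 2260 reads. No source used here says whether the counting used strand, and reads in those shared parts cannot be assigned without it.

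RefSeq start sites (GRCm38.p6) were found for 7 of the 9 members, with 11 windows of 300 bases, each running from 250 bases before a start to 50 after it; Spi1 and Maf had none in the table used. Those of 3 are shown, up to the annotated start, because Cebpa and Runx1 moved in opposite ways between libraries, as described further on, and the Tfec window holds the most AGGAAG matches. Capitals mark TATAAA in Cebpa and the ETS core AGGAAG, on either strand, in Tfec and Runx1; the last is the distal of the RefSeq starts of Runx1.
Cebpa: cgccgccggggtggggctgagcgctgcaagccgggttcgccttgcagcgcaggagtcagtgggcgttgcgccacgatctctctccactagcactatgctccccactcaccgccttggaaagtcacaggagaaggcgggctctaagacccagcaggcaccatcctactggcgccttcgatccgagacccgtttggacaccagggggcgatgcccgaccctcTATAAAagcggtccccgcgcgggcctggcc
Tfec: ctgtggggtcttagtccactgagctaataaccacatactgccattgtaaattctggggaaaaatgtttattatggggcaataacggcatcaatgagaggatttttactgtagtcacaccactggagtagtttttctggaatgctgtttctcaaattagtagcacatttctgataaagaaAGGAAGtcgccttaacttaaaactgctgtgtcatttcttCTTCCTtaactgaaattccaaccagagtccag
Runx1: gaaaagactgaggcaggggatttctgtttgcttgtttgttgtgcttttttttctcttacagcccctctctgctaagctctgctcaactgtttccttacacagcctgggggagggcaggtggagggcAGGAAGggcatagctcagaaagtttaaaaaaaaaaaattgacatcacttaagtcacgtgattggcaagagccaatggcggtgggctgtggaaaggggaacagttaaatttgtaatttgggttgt
The Cebpa stretch is chr7:35119043-35119292 (plus strand), that of Tfec chr6:16898442-16898691 (minus) and that of Runx1 chr16:92826075-92826324 (minus). They differ in base composition: the Cebpa stretch has 66.4% G and C and 22 CpG, and those of Tfec and Runx1 have 39.2% and 45.6%, with 2 CpG each. TATAAA begins 30 bases before the start of Cebpa, and in Cebpb it begins 22 bases after the annotated start. Those are the only member windows with it, against 13.6% of all 32851 RefSeq windows. Within the printed stretches AGGAAG begins 71 and 32 bases before the start of Tfec and 124 bases before that of Runx1. It occurred in windows of 3 members (Tfec, Runx1 and Zeb2) and in 35.4% of all windows. Of the other letters searched on either strand, TTGCNNAA (C/EBP) was in a window of Zeb2, TGTGGT (RUNX) in windows of Tfec and Runx1, TGCTGA (MAF) in that of Bach1, CACCTG (ZEB) in a window of Runx1 and CACGTG (E-box) in windows of Klf4 and Runx1. The shares over all windows were 10.8%, 16.8%, 19.5%, 20.2% and 7.15% in that order. A match describes the letters only.

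Loss of Ube3a moved none of the 9 lineage factors past the threshold. By limma on log2(CPM + 1) with Benjamini-Hochberg adjustment, 0 of 9 were called at an adjusted p under 0.05, where 0.0165% of all tested genes were (0.00825% higher and 0.00825% lower in KO), and 0 of 9 had an unadjusted p under 0.05, where 4.13% of all tested genes did. limma-voom also called 0 of 9, with 0 of 9 under 0.05 unadjusted. In no member did the KO and WT libraries separate without overlap, which they did in 9.95% of tested genes (4.41% higher and 5.55% lower in KO). The log2 fold changes ran from -0.14 to 0.22, with a median of -0.01 beside 0.0015 over all tested genes. The 95% interval of every one of the 9 lay within 1.5-fold of no change, as it did for 90.4% of all tested genes. These intervals rest on the spread of 3 libraries per genotype, which may be technical in part, and so do not bound the difference between animals. In RNA from a whole culture, fewer cells of a type and less RNA per cell cannot be told apart.

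**Figure D2:**
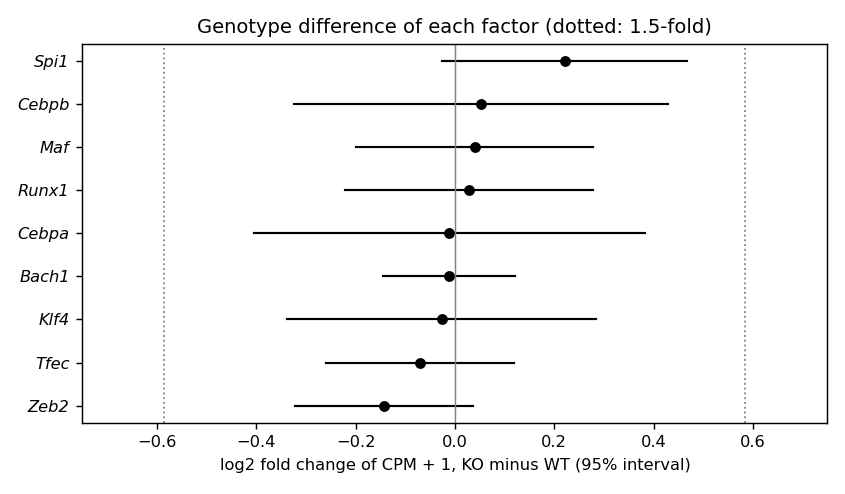
Log2 fold change of CPM + 1 (KO minus WT) of each factor with its 95% interval from limma, and dotted lines at 1.5-fold. All 9 intervals cross 0 and stay inside the dotted lines.

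Spi1 had the widest difference of the set. Its KO replicates 1 to 3 measured 314, 321 and 263 CPM, and its WT replicates 1 to 3 measured 224, 275 and 271 CPM. KO replicates 1 and 2 were above all WT libraries, KO replicate 3 lay below 2 of them, and WT replicate 1 was lowest. The means were 299 ± 31.3 and 257 ± 28.2 CPM, a log2 fold change of 0.22 ± 0.11 (SE; 95% interval -0.03 to 0.47; limma adjusted p = 0.866, unadjusted p = 0.0723). Leaving out 1 library moved the value between 0.13, without WT replicate 1, and 0.31, without KO replicate 3, and none of these fits called it. Irf8, a partner that PU.1 recruits to shared sites, averaged 165 ± 15.2 CPM in KO libraries and 147 ± 15.1 CPM in WT libraries (log2 fold change 0.17, limma adjusted p = 0.866).

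The C/EBP factors varied most between libraries, and neither passed the threshold between genotypes. Cebpa, which drives the step from progenitor to granulocyte and monocyte, measured 39.0, 55.4 and 38.1 CPM in KO libraries and 48.6, 35.5 and 48.8 CPM in WT libraries. Its highest library was KO replicate 2 and its lowest WT replicate 2, 1.56-fold apart, so each genotype held high and low libraries. The means were 44.1 ± 9.72 and 44.3 ± 7.60 CPM, with a log2 fold change of -0.01 (95% interval -0.40 to 0.38; limma adjusted p = 0.988). Cebpb, which serves inflammatory and alternative activation, measured 42.9, 51.0 and 34.8 CPM in KO libraries and 38.6, 35.2 and 50.1 CPM in WT libraries. KO replicate 2 and WT replicate 3 were high and KO replicate 3 and WT replicate 2 low, and the log2 fold change was 0.05 (-0.32 to 0.43; limma adjusted p = 0.951).

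Maf and Klf4 had log2 fold changes well inside their spread between libraries. Maf, which restrains proliferation of mature macrophages and favours Il10, measured 393, 508 and 475 CPM in KO libraries and 413, 461 and 459 CPM in WT libraries. The WT libraries lay inside the KO range, and the log2 fold change was 0.04 (-0.20 to 0.28; limma adjusted p = 0.938). Klf4 measured 26.4, 21.8 and 24.8 CPM in KO libraries and 26.8, 20.1 and 28.2 CPM in WT libraries. Replicate 2 was the lowest library of each genotype, and the log2 fold change was -0.03 (-0.34 to 0.28; limma adjusted p = 0.967).

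Runx1, which acts as a dimer with the product of Cbfb, measured 139, 113 and 128 CPM in KO libraries and 115, 143 and 115 CPM in WT libraries. WT replicate 2 and KO replicate 1 were highest and KO replicate 2 lowest, and the log2 fold change was 0.03 (-0.22 to 0.28; limma adjusted p = 0.959). Zeb2 measured 512, 466 and 482 CPM in KO libraries and 553, 568 and 493 CPM in WT libraries. WT replicates 1 and 2 were above all KO libraries, but WT replicate 3 lay below KO replicate 1. The means were 487 ± 23.4 and 538 ± 39.2 CPM, a log2 fold change of -0.14 ± 0.08 (SE; -0.32 to 0.04; limma adjusted p = 0.866, unadjusted p = 0.104).

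Bach1 was the steadiest factor of the set. It measured 136, 131 and 139 CPM in KO libraries and 133, 135 and 141 CPM in WT libraries, so that its highest and lowest libraries were 1.08-fold apart. Its log2 fold change was -0.01 (-0.14 to 0.12; limma adjusted p = 0.966), an interval of 0.905-fold to 1.09-fold. Tfec measured 21.9, 23.9 and 25.0 CPM in KO libraries and 26.5, 24.2 and 23.8 CPM in WT libraries. KO replicate 1 was lowest and WT replicate 1 highest, with overlap between the genotypes and a log2 fold change of -0.07 (-0.26 to 0.12; limma adjusted p = 0.892).

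**Figure D3:**
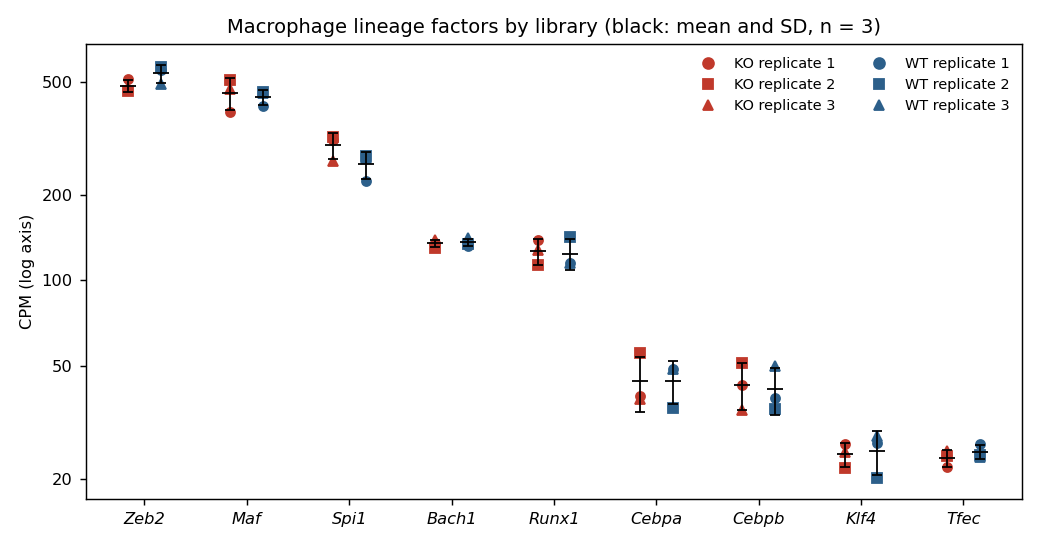
CPM (log axis) of each factor in the 3 KO (red) and 3 WT (blue) libraries, with the mean and SD of each genotype in black. Zeb2, Maf and Spi1 lie above 200 CPM in every library and Klf4 and Tfec below 30 CPM, and no factor separates red from blue.

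The balance between a factor and a relative that shares or opposes its sites was compared within each library, where the library scaling cancels. Bach1 stood at 0.400 to 0.462 times the CPM of Nfe2l2, which encodes NRF2, the activator that competes with BACH1 for antioxidant elements. Spi1 stood at 1.68 to 1.90 times Irf8, and Cebpa at 0.910 to 1.26 times Cebpb. Per exon length these were 0.259 for Bach1 over Nfe2l2, 4.65 for Spi1 over Irf8 and 0.599 for Cebpa over Cebpb. The log2 ratios differed little between genotypes beside their spread: the differences (KO minus WT) were -0.02 for Bach1 over Nfe2l2, 0.05 for Spi1 over Irf8 and -0.06 for Cebpa over Cebpb. Two-sided exact permutation tests gave p = 0.7, 0.4 and 0.8 in that order, with an adjusted p of 0.8 for each, adjusted over 4 ratios computed. Groups of 3 cannot give a p below 0.1.

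Cebpa and Runx1 varied between libraries of the same genotype, and in opposite directions. They were the most unlike of all pairs of members (root mean square difference 0.354 on the log2 scale). The pair is thus the extreme of a search over 6 libraries and is given as a description. Cebpa was above its 6-library mean in KO replicate 2 (0.34 on the log2 scale), WT replicate 1 (0.15) and WT replicate 3 (0.16), and below it in KO replicate 1 (-0.16), KO replicate 3 (-0.19) and WT replicate 2 (-0.29). Runx1 had the opposite sign in each library, at 0.16 in KO replicate 1, only 0.03 in KO replicate 3 and 0.19 in WT replicate 2, and at -0.14, -0.12 and -0.11 in KO replicate 2, WT replicate 1 and WT replicate 3. The split ran across genotype, with 2 KO libraries and 1 WT library on one side.

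Genes induced by interferon split the libraries in the same way. A list of 15 such genes, among them Ifit1, Isg15 and Mx1, stood at 1.04, 0.17 and 0.88 (mean log2 deviation) in KO replicates 1 and 3 and WT replicate 2 respectively, and at -0.88, -0.76 and -0.44 in KO replicate 2 and WT replicates 1 and 3. The summed level of this list ran from 439.5 to 1658 CPM in KO and from 464 to 1416 CPM in WT. Its median log2 fold change was 0.25, with 13 of 15 genes positive and 0 called by limma. Monocyte genes were lowest in KO replicate 1 (-0.32) and WT replicate 2 (-0.46), where neutrophil genes were also lowest (-0.78 and -0.44). KO replicate 3 did not follow them, with 0.28 for the monocyte list, the highest of the 6 libraries, and 0.14 for the neutrophil list. With the level of the interferon list as a covariate, an alternative added after seeing the data, limma called 0 of 9 factors, and the log2 fold change was 0.05 for Cebpa and -0.01 for Runx1. The part of these lists in the levels of the factors was not tested further.

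**Figure D4:**
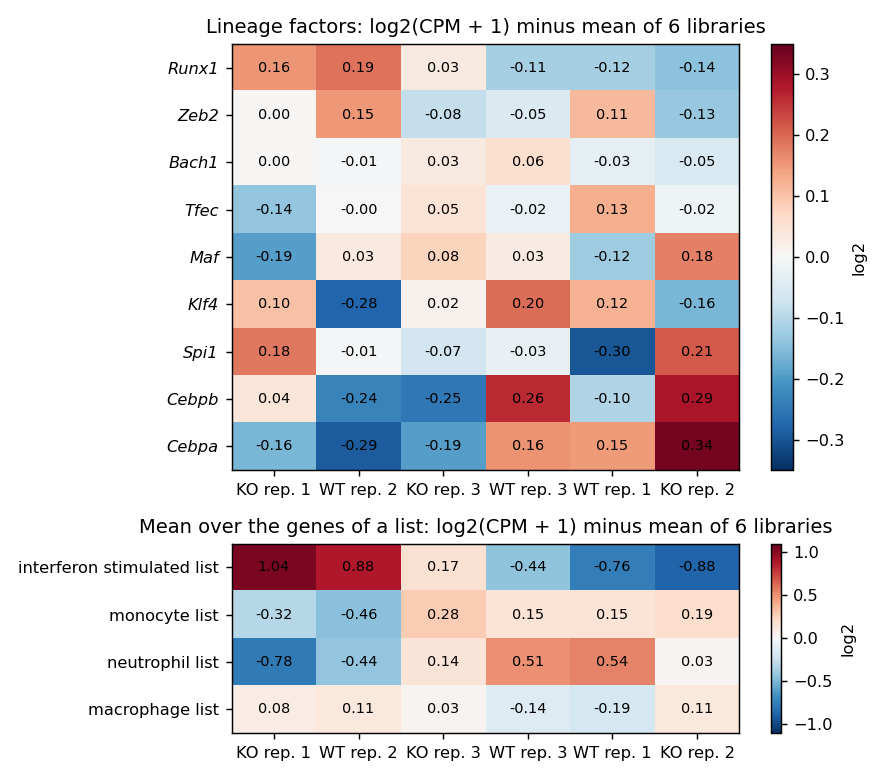
Log2(CPM + 1) minus the mean of 6 libraries, for the 9 factors (top) and as a mean over the genes of 4 lists (bottom), with libraries ordered by the interferon list. Runx1 is positive in KO replicates 1 and 3 and WT replicate 2 and negative in the other 3 libraries, and Cebpa has the opposite sign in all 6.

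Without both libraries with almost no Xist, replicate 2 of each genotype, 2 libraries per genotype remained. Cebpa then had a log2 fold change of -0.33 (limma adjusted p = 0.114, unadjusted p = 0.00229), and Runx1 had a log2 fold change of 0.21 (limma adjusted p = 0.306, unadjusted p = 0.0216). Neither passed the threshold, and 0 of 9 factors were called in that fit, where 23 genes of the whole table were. The removed KO replicate 2 and WT replicate 2 were the highest and lowest libraries of Cebpa, and the lowest and highest of Runx1. Their removal could therefore only lower the value of Cebpa and raise that of Runx1. With the Xist level as a covariate over all 6 libraries, 0 of 9 were called as well.

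The patterns of the most variable factors were shared by other genes. Over the 6 libraries Cebpa and Cebpb had the widest ranges, 0.63 and 0.54 on the log2 scale, beside a median of 0.32 over all tested genes and 0.11 for Bach1. Among 2179 genes with a range of at least 0.5, Bambi, which encodes a decoy receptor of the TGF-beta family, was nearest to Cebpa, with a root mean square difference of 0.04. Rusc1 and Epop followed, both at 0.05. Nearest to Cebpb were Pheta1 at 0.06, Nek8 at 0.09 and Gdpd5 at 0.09. These likenesses rest on 6 libraries and a search over many genes, and are given as a description.

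Relatives and partners of the 9 factors did not pass the threshold either. Of 81 such genes in 8 lists, 64 were tested and limma called 0, with 3 under an unadjusted p of 0.05 (4.69%, beside 4.13% of all tested genes). limma-voom called 0 as well, with 3 under 0.05 unadjusted. The median log2 fold change was -0.01 and 29 of 64 were positive. Without overlap between genotypes were 4 of 64 (Mef2a, Mitf, Zeb1 and Cbfa2t2, all lower in KO). Over all tested genes the share was 9.95% in either direction and 5.55% lower in KO.

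Within the families, the median log2 fold change was -0.01 for the 12 tested ETS relatives, where the repressor Etv3 had 0.14 and Gabpa, an activator of housekeeping and mitochondrial genes, had -0.15. The 4 genes listed as C/EBP relatives had a median of 0.03, with Cebpd at 0.18. Cebpz, listed for its name though its protein is outside the family, had -0.12. The 8 MAF and CNC genes had a median of -0.01, with the small MAF gene Mafk at 0.11 and Nfe2 at -0.38 on 1.14 CPM. Nfe2l2 had a log2 fold change of 0.01 (95% interval -0.14 to 0.17). The medians of these lists lay near that of all tested genes.

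The 9 KLF relatives had a median of -0.01, with Klf7 at 0.10 and Klf10 at -0.09. The 5 RUNX relatives and cofactors had a median of -0.15, with 1 of 5 positive. Among them Cbfb averaged 233 ± 24.4 CPM in KO libraries against 262 ± 12.7 CPM in WT libraries (-0.18; limma adjusted p = 0.866), and Runx2 had -0.15. Of the 3 ZEB relatives and cofactors, Zeb1 stood at 2.42 ± 0.263 and 3.22 ± 0.214 CPM (-0.30; limma adjusted p = 0.866, unadjusted p = 0.0284), and the corepressor gene Ctbp1 had 0.06.

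In the MITF family, closest to Tfec, Mitf measured 64.1, 60.4 and 64.2 CPM in KO libraries and 76.3, 69.0 and 69.1 CPM in WT libraries. All 3 KO libraries were below all 3 WT libraries, with a log2 fold change of -0.18 (-0.33 to -0.03; limma adjusted p = 0.866, unadjusted p = 0.0265), and Tfeb, a driver of lysosome genes, had 0.13. Of 20 other myeloid factors, with a median of -0.0015, Mef2a had -0.32 (limma adjusted p = 0.866, unadjusted p = 0.0141) and the cytokine-activated factor Stat3 had 0.16.

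Genes known to be driven or held down by these factors were tested as 6 lists, of which 5 are described here, with 62 of 69 genes tested in all 6. limma called 0 of 62, with 5 under an unadjusted p of 0.05 (8.06%, beside 4.13% of all tested genes), and limma-voom called 0, with 6 under 0.05 unadjusted. The lists spread more widely than the factors, from -0.65 to 0.75 on the log2 scale. The 17 PU.1 targets had a median of 0.0037, with 9 positive. Fcgr1, the high-affinity IgG receptor, averaged 172 ± 17.0 CPM in KO libraries against 122 ± 38.3 CPM in WT libraries (0.54; limma adjusted p = 0.866), and Fcgr3, a low-affinity IgG receptor, ran from 279.1 to 358 CPM in KO and from 271.5 to 279.0 CPM in WT (0.24; limma adjusted p = 0.866).

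C/EBP targets had a median of -0.25 over 11 genes, with 2 positive. Several of them are granule genes near the lower limit of detection: S100a9 ran from 1.40 to 3.21 CPM in KO and from 2.19 to 4.94 CPM in WT (-0.59; limma adjusted p = 0.866), and Lcn2 at 1.08 ± 0.317 and 1.60 ± 0.225 CPM (-0.33). In the order of replicates 1 to 3, its mean log2 deviation was -0.36, 0.0093 and 0.0046 for KO, against 0.30, -0.22 and 0.26 for WT. The neutrophil list, with which it shares genes, had -0.78, 0.03 and 0.14 in the KO libraries and 0.54, -0.44 and 0.51 in the WT libraries, and its part in these values was not tested.

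The 15 genes repressed by BACH1 had a median of -0.03, with 7 positive. Gclc, of glutathione synthesis, averaged 58.2 ± 3.32 CPM in KO libraries against 72.3 ± 11.7 CPM in WT libraries (-0.30; limma adjusted p = 0.866), and Txnrd1, a thioredoxin reductase, had -0.20. The 8 MITF family targets had a median of 0.05, with the lysosomal glycoprotein Gpnmb at 0.37 and Dcstamp, a gene of osteoclast fusion, at 7.55 ± 0.235 against 10.9 ± 1.89 CPM (-0.46; limma adjusted p = 0.866, unadjusted p = 0.00566). The 5 KLF4 targets had a median of -0.03. The mannose receptor gene Mrc1 had 0.73, at 531 to 897 CPM in KO and 277 to 738 CPM in WT. Chil3, near the lower limit of detection, had -0.65, at 0.280 to 1.48 CPM in KO and 0.460 to 3.52 CPM in WT. Both overlapped between genotypes (limma adjusted p = 0.866 for each).

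**Figure D5:**
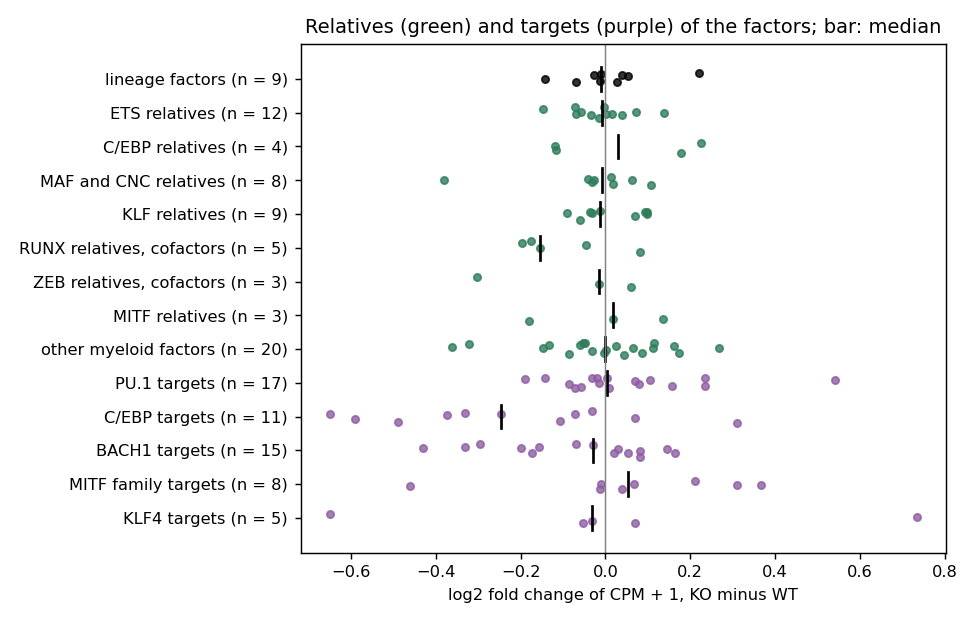
Log2 fold change of CPM + 1 (KO minus WT), 1 point per tested gene, for the 9 factors (black), their relatives (green) and the targets in 5 lists (purple), with a bar at each median. The factors lie between -0.14 and 0.22 and the targets shown between -0.65 and 0.73.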

How the data were processed

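Polyadenylated RNA of 6 libraries was sequenced. Per the labels' protocols, RNA was column-purified and libraries were made with a KAPA mRNA kit. The tools listed per the submitters' processing notes were HISAT2 2.1.0, Trimmomatic 0.36, FastQC 0.11.15, Cufflinks and HTSeq 0.11.0, and no source used here gives their roles, the build or the strand setting. Per the file headers, the deposited values are CPM, and their range shows log2 CPM. Decimal marks lost on saving were rebuilt, since 2 to the power of each value, less 1 shared offset, is a whole multiple of the CPM of 1 read (0.0277 to 0.0400), which gave whole reads for 100% of values within 0.001. The authors' deposited p-values, for 16830 readable genes, differed from limma-voom on these reads by at most 5.56e-07 as a relative gap, and were not used further.

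Genes with at least 1 CPM in 3 libraries were fitted with limma 3.58.1 in R 4.3.3 (eBayes with a trend) on log2(CPM + 1), which makes changes of low genes look smaller, with genotype as the only term. The fit was tested on simulated data. Calls use a Benjamini-Hochberg adjusted p under 0.05 over all tested genes, two-sided, with 95% intervals. Exon lengths come from GENCODE M21, and the authors' build may differ. Named genes are the members, the ratio partners, and from each list the 2 with the smallest p where none was called. For the 2 most variable members, the 3 nearest genes were named. Members and lists were chosen with earlier results of these data known. Chi-square over its degrees of freedom was 12.4 to 49.9 between libraries of 1 genotype, more than sampling gives. Alternatives changed the pseudocount, filter, test, scaling, block, Xist or interferon covariate and libraries. Results of 1 gene, and of 1 list named for it, are not reported here.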

Additional observations from a re-analysis of the deposited data

How the results depend on the processing

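No alternative called any of the 9 factors, and Spi1, Zeb2 and Tfec kept their direction in all 14 alternatives of each. Of 126 alternative values for the factors, 21 changed sign, all in factors with a main log2 fold change of at most 0.05 in size, and 16 of these came from leaving out 1 library. With 1 library left out, the log2 fold change ran from -0.18 to 0.083 for Cebpa, -0.078 to 0.20 for Cebpb, -0.038 to 0.15 for Maf, -0.17 to 0.064 for Klf4, -0.042 to 0.13 for Runx1, -0.031 to 0.013 for Bach1, 0.13 to 0.31 for Spi1, -0.20 to -0.10 for Zeb2 and -0.11 to -0.02 for Tfec. Without both libraries with almost no Xist, Cebpb was at -0.18, Maf at -0.011 and Bach1 at 0.0057. With the interferon list as a covariate, Cebpa was at 0.048 and Runx1 at -0.0095. The difference of the log2 ratio ran from -0.13 to 0.049 for Cebpa over Cebpb, from -0.065 to 0.035 for Bach1 over Nfe2l2 and from 0.018, without WT replicate 1, to 0.11, without WT replicate 3, for Spi1 over Irf8 (0.05 with all 6) with 1 library left out. The number of genes called over the whole table was 2. It was 1 with no filter on low values and with limma-voom, 4 with the interferon list as a covariate, 23 without both libraries with almost no Xist, and 1 to 8 with 1 library left out, with 8 reached without WT replicate 2. The cause was not tested. With the longest transcript as the length, 5 of the 9 factors kept their place in the level order.

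Libraries with the same replicate number did not deviate together, with correlations across genes of -0.216, -0.134 and 0.14 for numbers 1, 2 and 3, and no library correlated best with its own number. With the replicate number as a block, limma called 2 genes and 0 of 9 factors, with Spi1 at 0.22 and Zeb2 at -0.14. The least covered factor in any library, Tfec, had 548 reads there, a counting error of 4.27%.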
